A study of Mus musculus with 8 samples.

Results

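The proteins of the cytosolic ribosome are encoded by a large family of genes that nearly every cell transcribes at a high rate. Of the 23420 gene symbols counted in these libraries, 85 were taken as cytosolic ribosomal protein genes by their names, 52 of the large subunit (Rpl symbols with Rplp0, Rplp1 and Rplp2) and 33 of the small subunit (Rps symbols with Rpsa). Symbols of S6 kinases and of named pseudogenes were left out. A few further ribosomal protein genes, among them Fau and Rack1, have names outside this scheme and are given further on among related genes. Of the 85 genes, 82 had a count in at least 1 library, and 78 (46 large, 32 small) had enough counts to be tested.

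RNA was sequenced from thymocytes of wild-type mice of 2 strains, which the library names give as B6 and BALB with no substrain, age or sex. The labels name no treatment. Each strain has 2 libraries of DP (double-positive) cells and 2 of unsorted whole thymocytes, 8 libraries in 4 groups. DP cells were gated as CD4+ CD8+, negative for the activation marker CD69, and low to intermediate for the T cell receptor beta chain, stained with H57. No source used here says that replicates came from separate animals, so p-values may not measure the spread between animals.

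A ribosome is built in the nucleolus from ribosomal RNA, which RNA polymerase I transcribes, and from proteins that are imported from the cytoplasm and joined in near-equal numbers. Ribosomal protein mRNAs begin with a run of pyrimidines, the TOP motif (terminal oligopyrimidine tract), through which the kinase mTOR and the protein LARP1 control their translation, and the transcription factor Myc is known to raise the output of the genes. In the thymus, cells grow and divide fast as CD4- CD8- precursors and while they enter the DP stage, and most DP cells are small and out of cycle.

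Each library had 2632083 to 5974684 counts in genes, which were 22.6% to 30.8% of its reads. BALB DP replicate 1 stood apart, with 3.14% of its gene counts in Rn45s, the ribosomal RNA precursor, against 5.11% to 8.35% in the other libraries. Its ribosomal protein genes also differed most from those of its own replicate. Of 75 such genes with a mean of at least 20 counts in that group, 21 (28.0%) were over 1.5-fold higher in replicate 1 than in replicate 2, against 9.58% of all genes tested, and 4 were over 1.5-fold lower. In B6 DP thymocytes 0 members were that much higher in replicate 1 and 6 in replicate 2 (7.89%, against 3.49% of all genes), in B6 whole thymocytes 0 and 1, and in BALB whole thymocytes 4 and 1. The BALB whole thymocyte replicates differed in the X-linked Xist, which was 58.7-fold higher in replicate 1. Each comparison of the ribosomal protein genes is therefore given with and without single libraries. Related genes and markers are given from the fit of all 8 libraries alone. The marker genes of DP thymocytes, such as Rag1 and Rag2, were detected in every DP library. Over both strains 9 of 10 fell in whole thymocytes, where 8.01% of all genes did.

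**Figure D1:**
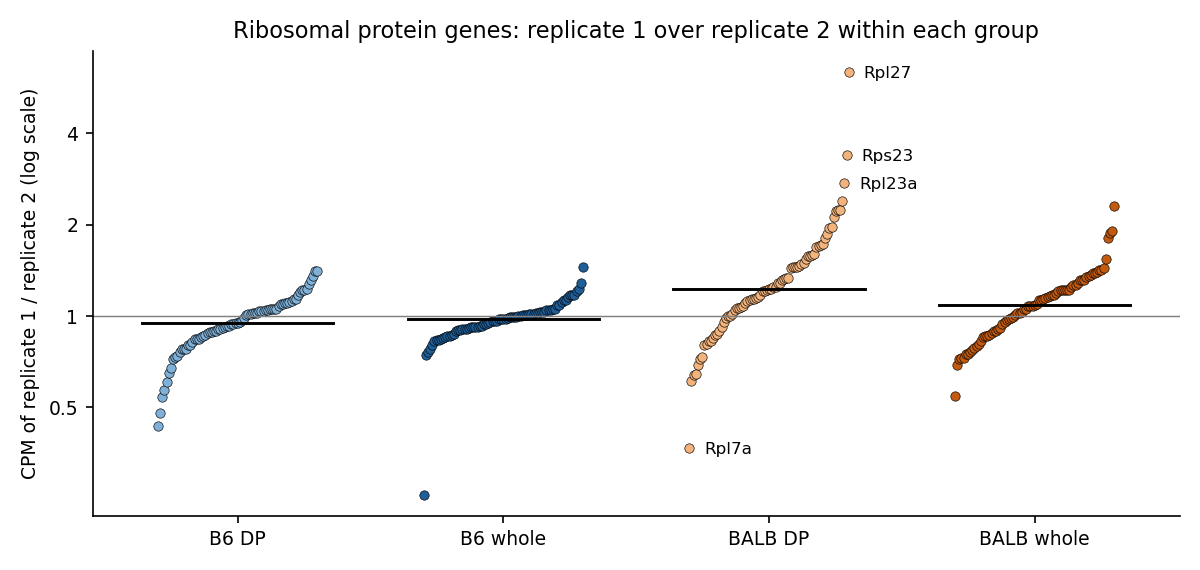
CPM of replicate 1 divided by CPM of replicate 2 on a log axis for 75 ribosomal protein genes with a mean of at least 20 counts in BALB DP thymocytes, 1 point per gene, ordered by value within each of the 4 groups, with a bar at the median of the points. In BALB DP thymocytes the points spread from 0.368 (Rpl7a) to 6.38 (Rpl27) around a median of 1.23; the low point of B6 whole thymocytes is Rps27, which had 3 and 12 counts.

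The family is best known by the start of its mRNAs, and the first bases of 6 of its genes are printed here because these genes carry results below. RefSeq promoters on GRCm38.p6 were matched for 64 of the 85 genes, with 76 start sites. A run of C followed by at least 4 pyrimidines (C or T) at the first base was present at 13 of the 76 starts (17.1%), against 2.51% of 32851 starts of all genes. A C and 4 pyrimidines lying wholly within the 5 bases before the start and the first 10 from it were present at 40.8% against 18.3%. Each line below is the strand of the gene, 10 bases before the annotated start and 20 from it, with such a run at the first base in capitals. Where a gene had several starts, one with a run at the first base was shown if there was one. The lines therefore do not give the share of starts with a run.
Rpl14, chr9:120571507-120571536, plus strand: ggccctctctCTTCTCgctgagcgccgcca
Rps15a, chr7:118116128-118116157, minus strand: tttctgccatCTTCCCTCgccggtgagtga
Rps21, chr2:180257369-180257398, plus strand: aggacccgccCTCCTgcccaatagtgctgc
Rpl35a, chr16:33056472-33056501, plus strand: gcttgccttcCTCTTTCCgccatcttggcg
Rps2, chr17:24720053-24720082, plus strand: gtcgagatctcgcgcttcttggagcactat
Rps7, chr12:28635934-28635963, minus strand: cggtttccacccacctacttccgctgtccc
At the starts shown, Rpl14, Rps15a, Rps21 and Rpl35a begin with a run. Rps2 and Rps7, the genes with the smallest p between the strains, have none at the base RefSeq gives as the first. In both a run of this kind begins a few bases further on, cttctt in Rps2 and cttcc in Rps7. The Rps2 start lies inside the longer gene span that GENCODE gives, so other starts of Rps2 are not shown by this window.

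Levels differed widely between members. Per kilobase of transcript, and as a mean over the 8 libraries, Rplp1 was at 811 CPM (counts relative to a library total adjusted by the TMM factor), followed by Rpl13a at 598, Rpl8 at 556, Rpl4 at 463 and Rpl23a at 423 CPM per kilobase. These were the 5 highest means, but the order varied with the group: in B6 DP thymocytes Rpl13a, at 566 CPM per kilobase, lay above Rplp1, at 508, and Rpl23a was at 314 there and at 551 in BALB DP thymocytes, with 453 and 165 CPM in the 2 BALB DP libraries. The median of the tested genes was 78.0 CPM per kilobase. Rplp1 encodes an acidic protein of the stalk that recruits elongation factors, Rpl13a a protein also known for translational control after interferon-gamma, and Rpl4 a protein that lines the exit tunnel. At the other end, Rpl10l, Rpl26 and Rpl39l had no counts in any library, Rpl3l, Rpl30 and Rpl34 were at 0.388, 0.670 and 0.974 CPM per kilobase, and Rpl29 and Rpl21 at 3.22 and 3.62 CPM per kilobase. Rpl10l and Rpl39l are copies known from the testis and Rpl3l from muscle, but Rpl26, Rpl30 and Rpl34 encode ordinary proteins of the ribosome. The 4 genes with counts but too few to test were Rpl30, Rpl34, Rpl3l and Rps4y2, with at most 7 counts in a library.

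Near-identical copies bear on single values. The authors' counting left out reads that aligned to several places, 10.1% to 11.9% of all reads per library. Of the 84 genes with a transcript in the reference, 78 had at least 1 pseudogene copy at 90% identity or more over at least 80% of the coding sequence, with a median of 8 copies and at most 76 (Rpl21 and Rpl7a). A median of 45.9% of a gene's 50-base stretches occurred in no other annotated transcript, and 49 genes were under 50%. That share ranged from 1.35% for Rps27 to 100% for Rpl3l and Rpl39l. Over 81 genes with a count, it and the level per kilobase had a Spearman's rho of 0.11, a description across genes of the same libraries. Levels of different members are therefore less certain than the difference of 1 member between groups, and a difference between strains can also hold a difference in how many reads were unique, which was not tested.

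Summed over all 85 genes, ribosomal protein transcripts were at 7247 and 7316 CPM in the B6 DP libraries and at 9223 and 9407 CPM in the B6 whole thymocyte libraries. The 2 groups did not overlap, and the ratio of their means was 1.28. In BALB the sums were 9751 and 7810 CPM in DP and 9215 and 9216 CPM in whole thymocytes. Here replicate 1 of the DP cells lay above both whole thymocyte libraries and replicate 2 below both, so the groups overlapped at a ratio of 1.05. As a share of all counts in genes, with no further scaling, the ratios were 1.35 in B6 and 1.13 in BALB, and with Rn45s taken out of the total 1.38 and 1.16. Both subunits were higher in B6 whole than in B6 DP thymocytes, from 4688 ± 68.3 to 5923 ± 42.5 CPM (mean ± SD, n = 2) for the large and from 2593 ± 117 to 3392 ± 87.3 CPM for the small. Mitochondrial ribosomal proteins, a separate set of 76 genes, were at 1402 ± 14.4 CPM in B6 DP and 1509 ± 4.90 CPM in B6 whole thymocytes.

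**Figure D2:**
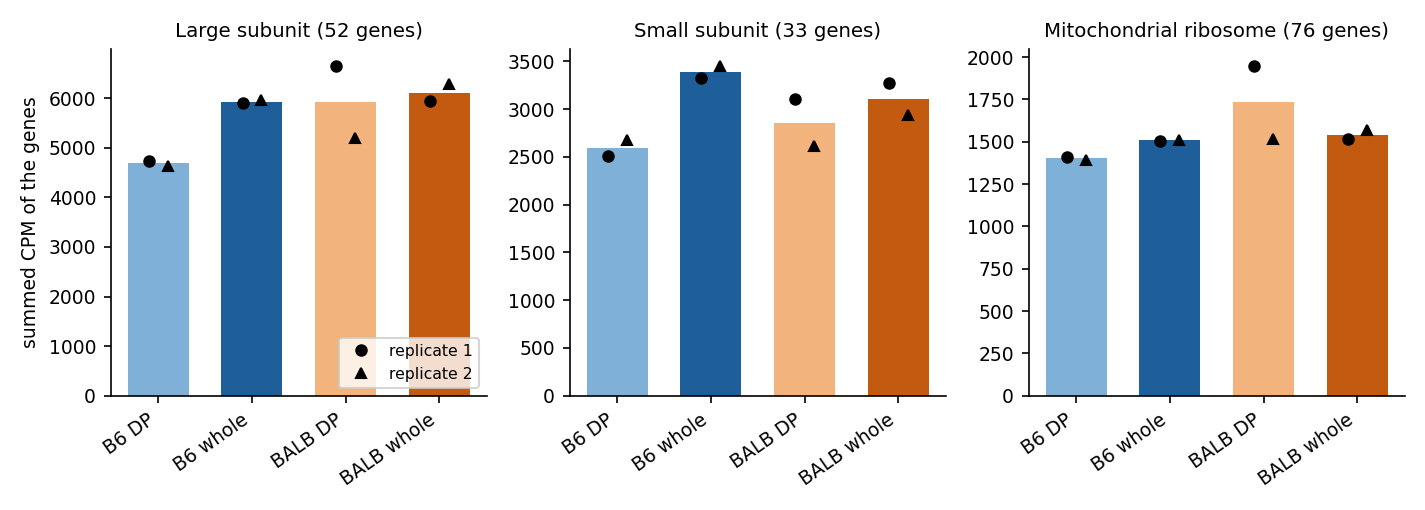
Summed CPM of the large subunit genes, the small subunit genes and the mitochondrial ribosomal protein genes in the 4 groups; bars are means of 2 libraries, circles replicate 1 and triangles replicate 2. In B6 the whole thymocyte libraries lie above the DP libraries in all 3 panels, while in BALB DP thymocytes replicate 1 is far above replicate 2.

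Whole thymocytes hold the cells that the DP sort leaves out, and in such bulk samples fewer cells of a type and less RNA per cell cannot be told apart. Summed markers of DP thymocytes were lower in whole thymocytes, from 20961 and 20155 CPM in B6 DP to 12274 and 12849 CPM in B6 whole thymocytes, and from 13765 and 13743 to 10050 and 9449 CPM in BALB. The counts of markers that follow are over both strains, where 12.5% of all genes rose and 8.01% fell. Of 6 T lineage markers 3 fell and 0 rose. Mature thymocyte markers, 7 of 7 of which rose over both strains, went from 82.8 to 98.3 CPM in the 4 DP libraries to 351 to 529 CPM in whole thymocytes. Of 11 myeloid and dendritic markers 11 rose, from 28.2 to 45.6 CPM to 231 to 297 CPM, of 6 thymic epithelial markers tested 5 rose, from 2.80 to 5.70 CPM to 22.7 to 79.4 CPM with Foxn1 at 0 in all DP libraries, and of 5 B cell markers tested 4 rose, from 3.10 to 10.9 CPM to 15.9 to 25.9 CPM. Double-negative precursor markers held 2 of 3 that rose, at 66.8 to 99.9 CPM in DP and 108 to 179 CPM in whole thymocytes. Erythroid markers held 0 of 1 tested that rose, with Hba-a1 and Hba-a2 at 0 in all DP libraries. The part of these cells in the differences of the ribosomal protein genes was not tested.

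In B6, ribosomal protein genes were higher in whole than in DP thymocytes. Of 78 tested, 10 rose and 0 fell at a Benjamini-Hochberg adjusted p under 0.05, here and below from the quasi-likelihood test of edgeR with adjustment over all genes, where 10.2% of all genes were called, 6.89% higher and 3.27% lower. Of the 78, 73 had a positive log2 fold change, with a median of 0.38, against 0.00 over all genes tested. Groups did not overlap in most members: in 62 both whole thymocyte libraries lay above both DP libraries, and in 1, Rps27, below, where 30.7% of all genes did the one and 30.7% the other.

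Among the large subunit genes that rose, Rpl3 was at 169.9 and 166 CPM in B6 DP and at 286 and 276 CPM in B6 whole thymocytes. Both whole thymocyte libraries were high and the replicates close, a log2 fold change of 0.75 ± 0.10 (SE, edgeR adjusted p = 0.00104). Rpl3 (chromosome 15, 80077791 to 80091868, mm10, as all positions) encodes a protein that reaches towards the peptidyl transferase centre. Rpl36a, an X-linked gene (134585654 to 134588062), was at 8.78 and 16.2 CPM in DP and 30.7 and 29.0 CPM in whole thymocytes, with DP replicates that differed from each other but lay below both whole thymocyte libraries. Its change was the largest of those called, 1.22 ± 0.29 (edgeR adjusted p = 0.0205). Rpl32 went from 68.0 and 72.1 to 103 and 118 CPM (0.66 ± 0.15), Rpl27a from 32.3 and 29.2 to 46.9 and 48.7 CPM (0.64 ± 0.15), and Rpl14, whose first bases are shown above, from 48.0 and 57.0 to 89.8 and 79.1 CPM (0.68 ± 0.19). Rpl13 rose by 0.80 ± 0.22 on the log2 scale. The scaffold of the stalk, Rplp0, rose by less, from 167 and 164 to 221 and 214 CPM (0.39 ± 0.10, edgeR adjusted p = 0.0325). These 7 large subunit genes had groups that did not overlap.

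Of the small subunit, 3 genes rose, of which Rps20 and Rps25 had the smallest p. Rps20, of the head of the subunit (chromosome 4, 3831334 to 3835665), was at 113 and 131 CPM in B6 DP and 193 and 216 CPM in the whole cells, with no overlap, a log2 difference of 0.74 ± 0.12 (edgeR adjusted p = 0.00221). Rps25, which some internal ribosome entry sites need for translation, went from 32.0 and 35.8 to 51.1 and 59.8 CPM (0.71 ± 0.16, edgeR adjusted p = 0.0139). Among genes with a mean of at least 5 CPM, the largest differences that missed the threshold were those of Rps27a, which encodes a fusion of ubiquitin and a ribosomal protein (0.92 ± 0.28, edgeR adjusted p = 0.0640), Rps29 (0.85 ± 0.29, 0.0938) and Rps18 (0.82 ± 0.24, 0.0517). Rps29 and Rps27a had the widest gap between the B6 DP replicates, at 18.5 and 42.7 CPM and at 35.1 and 73.0 CPM.

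The count of 10 in B6 rested on the libraries fitted. It was 45 with the 4 B6 libraries alone, where 23.6% of all genes were called in either direction, against 10.2% with all 8 libraries. All 45 calls were higher in whole thymocytes. With 1 library left out, the lone library of its group was assumed to vary like the other groups. The count fell without any of the B6 libraries and rose without either BALB DP library, and so did the share of all genes called. The median log2 fold change moved between 0.34 and 0.43 over every setting run, and Rpl3 was called in each. The call of Rps20 ended without B6 DP replicate 1 (edgeR adjusted p = 0.0506), and the other 8 calls each ended in 3 or more of the fits that left out 1 library.

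In BALB the same comparison gave fewer calls. Of 78 genes 3 rose and 0 fell, where 17.2% of all genes were called, 10.6% higher and 6.59% lower. The median log2 fold change was 0.10, with 46 positive values, and groups did not overlap in 20 genes with whole thymocytes higher and in 5 with them lower, where 27.4% and 25.4% of all genes did so. Rpl3 was at 202 and 211 CPM in BALB DP and 265 and 308 CPM in BALB whole thymocytes (0.48 ± 0.10, edgeR adjusted p = 0.00835). Rps25 went from 38.3 and 32.6 to 55.9 and 50.8 CPM (0.57 ± 0.16, edgeR adjusted p = 0.0255). Both genes had also risen in B6, which makes 2 of the 10 genes that rose there and 2 of the 3 here. Rps4x, the X-linked gene of a small subunit protein that in humans also has a Y-linked copy, was at 77.7 and 122 CPM in DP and 138 and 173 CPM in whole thymocytes (0.67 ± 0.19, edgeR adjusted p = 0.0317). In B6 it was at 115 and 95.8 CPM in DP and 143 and 156 CPM in whole thymocytes, and missed the threshold there (0.51 ± 0.19, edgeR adjusted p = 0.115).

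The sign of the BALB median depended on which BALB DP library was used. Without BALB DP replicate 1 the median was 0.25, and without BALB DP replicate 2 it was −0.10. It was 0.11 without BALB whole thymocyte replicate 2, where the calls of Rpl3, Rps25 and Rps4x all ended. Without both BALB libraries numbered 1 it was 0.17. The number of ribosomal protein genes called moved with the libraries left out, and so did the share of all genes called. With the 4 BALB libraries alone 0 ribosomal protein genes were called, where 1101 of all genes were. Rps27, at a mean of 2.94 CPM, had the largest difference that missed the threshold (−1.70, edgeR adjusted p = 0.0530). Next were those of Rps2 (−1.28 ± 0.48), from 13 and 7 counts in DP to 3 and 5 in whole thymocytes, and of Rpl27 (−1.09 ± 0.53), which was at 153 and 24.0 CPM in DP and 39.5 and 47.8 CPM in whole thymocytes. Rpl27 shows the gap between the BALB DP replicates at its widest, a ratio of 6.38.

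**Figure D3:**
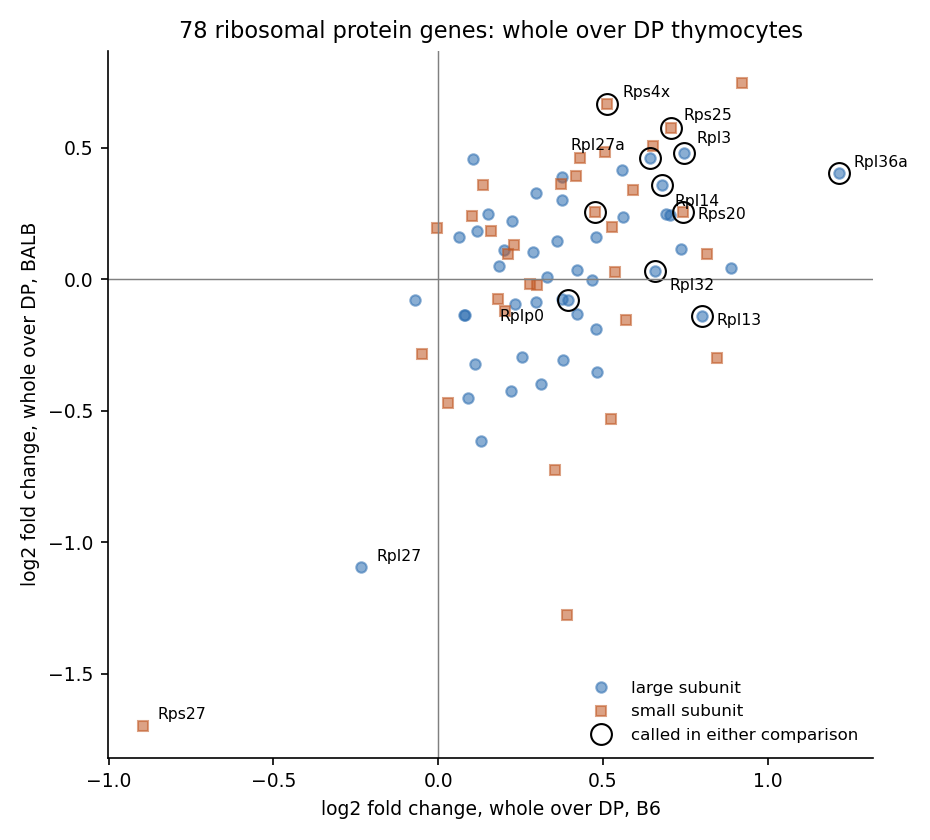
Log2 fold change of whole over DP thymocytes in B6 (x axis) and in BALB (y axis) for the 78 tested genes, 1 point per gene, circles for the large and squares for the small subunit, with rings on genes called in either comparison. Most points lie right of 0 on the B6 axis (73 of 78) and on both sides of 0 on the BALB axis (46 above).

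The test of the difference between the strains, the interaction of strain and population, called 0 of 78 genes, where 0.123% of all genes were called, 0.105% higher and 0.0175% lower. DESeq2 and limma-voom also called 0. In edgeR 14 of the 78 genes had an unadjusted p under 0.05, as did 1243 of all 11409 genes tested. The median interaction was −0.32 with 66 negative values, meaning a smaller rise in BALB, against 0.01 over all genes. The largest values, none of which passed, were those of Rps2 (−1.67 ± 0.52), Rps29 (−1.15 ± 0.40) and Rps23 (−1.08 ± 0.57). Without BALB DP replicate 2, which leaves the library that stood apart alone in its group, the median was −0.48. Without BALB DP replicate 1 it was −0.17.

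With both strains in 1 additive fit, 17 genes rose in whole thymocytes and 1 fell, where 20.5% of all genes were called, 12.5% higher and 8.01% lower. The median was 0.20, against −0.01 for all genes. Groups did not overlap in 13 genes with whole thymocytes higher and in 1 with them lower, where 12.0% and 8.61% of all genes did so. Of the 17, 10 belong to the small subunit and 7 to the large. Rpl3 (0.61 ± 0.08, edgeR adjusted p = 0.000314) and Rps25 (0.64 ± 0.11, 0.00145) led by p, and neither overlapped between the populations in any library. Rpl27a was at 29.2 to 39.9 CPM in the 4 DP libraries and 46.9 to 56.0 CPM in whole thymocytes (0.55 ± 0.11). Rps19, which is mutated in the human Diamond-Blackfan anaemia, was at 25.5 to 39.5 CPM in DP and 44.0 to 54.0 CPM in whole thymocytes (0.58 ± 0.14, edgeR adjusted p = 0.0140). Rps27a was at 35.1 to 77.1 CPM in DP and 90.5 to 112 CPM in whole thymocytes (0.83 ± 0.20, edgeR adjusted p = 0.0126).

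Rpsa, also known as the laminin receptor of the cell surface, rose by 0.45 ± 0.11 on the log2 scale, Rps20 by 0.50 ± 0.11 and Rps4x by 0.59 ± 0.14. Rps15a, whose run of pyrimidines is shown above, was at 155 and 172 CPM in B6 DP, 212 and 226 in B6 whole, 134 and 162 in BALB DP and 228 and 158 CPM in BALB whole thymocytes (0.40 ± 0.11, edgeR adjusted p = 0.0249). BALB whole thymocyte replicate 2 thus lay within the DP range. The other 8 that rose, by 0.31 to 0.79, included Rpl14, Rps12, Rpl36a, Rpl39, Rpl9, Rps7 and Rpl13a. Rps27, a zinc finger protein of the small subunit, was the one that fell, by 1.31 ± 0.40 on the log2 scale (edgeR adjusted p = 0.0372). It had 9 to 36 counts per DP library and 3 to 12 per whole thymocyte library, and 1.35% of its stretches were unique.

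Over both strains the median log2 fold change moved between 0.15 and 0.31 in the fits that left out 1 library. Rpl27a, Rpl3, Rps19, Rps20, Rps25, Rps27a, Rps4x and Rpsa were called in each of the fits that left out libraries. Those of Rps12, Rps15a, Rpl14, Rpl13a, Rpl36a, Rpl39, Rpl9 and Rps7 each ended in 4 to 7 of the 8 fits that left out 1 library. The call of Rps27 ended in 6 of the 8 fits that left out 1 library, with log2 fold changes from −1.81 to −0.97.

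A few members were much lower in BALB than in B6, in both populations. In DP thymocytes 4 of 78 genes were lower and 10 higher in BALB, where 13.0% of all genes were called, 6.14% lower and 6.85% higher. In whole thymocytes 6 were lower and 0 higher, where 4.59% of all genes were called, 2.61% lower and 1.98% higher. Rps2, Rps7, Rps14 and Rps28 were lower in both, which is 4 of the 4 and 4 of the 6, and all of them belong to the small subunit. Rpl35a and Rpl29 were the other 2 in whole thymocytes. Over both populations these 6 were lower and 2, among them Rplp1, higher, where 10.8% of all genes were called, 6.0% lower and 4.84% higher. Groups of the strains did not overlap in the 6 genes with BALB lower and in 1 gene with BALB higher, where 6.93% and 5.46% of all genes did so.

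Rps2 encodes a protein at the mRNA entry of the small subunit (chromosome 17, 24718116 to 24721929, plus strand). It was at 15.7 and 18.7 CPM in B6 DP and 22.4 and 22.9 CPM in B6 whole thymocytes, and at 2.27 and 2.71 CPM in BALB DP and 0.722 and 1.24 CPM in BALB whole thymocytes. The BALB values rest on 13, 7, 3 and 5 counts. All BALB libraries lay far below all B6 libraries, a log2 fold change of −2.82 ± 0.29 in DP (edgeR adjusted p = 6.35e-05) and −4.49 ± 0.33 in whole thymocytes (7.66e-06). Of its stretches 21.0% were unique, and it has 50 pseudogene copies.

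Rps7, a small subunit protein that also binds the p53 regulator Mdm2, is better counted (chromosome 12, 28630854 to 28635953, minus strand). It was at 154 and 162 CPM in B6 DP, 239 and 237 in B6 whole, 63.7 and 32.6 in BALB DP and 59.2 and 67.2 CPM in BALB whole thymocytes. The log2 fold change was −1.66 ± 0.21 in DP (edgeR adjusted p = 0.000427) and −1.91 ± 0.21 in whole thymocytes (0.000162). Rps14, whose loss marks the human 5q deletion syndrome, was at 144 and 146 CPM in B6 DP, 167 and 169 in B6 whole, 83.3 and 90.3 in BALB DP and 105 and 79.9 CPM in BALB whole thymocytes. That is −0.74 ± 0.13 in DP (edgeR adjusted p = 0.00388) and −0.86 ± 0.13 in whole thymocytes (0.00201). Rps14 has 2 pseudogene copies and 61.9% unique stretches, Rps7 has 12 and 40.1%. Rps28 differed by −0.68 ± 0.19 and −0.78 ± 0.18 (edgeR adjusted p = 0.0319 and 0.0277), with B6 at 51.7 to 69.2 CPM and BALB at 29.8 to 44.3 CPM.

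Rpl35a, a large subunit gene of the Diamond-Blackfan group, was at 31.7 and 28.7 CPM in B6 DP, 28.4 and 37.4 in B6 whole, 19.9 and 8.91 in BALB DP and 13.2 and 6.97 CPM in BALB whole thymocytes. Its difference passed in whole thymocytes (−1.70 ± 0.33, edgeR adjusted p = 0.0109) and not in DP (−0.95 ± 0.32, 0.0712), and a difference between the populations was not called. Rpl29 had 8 to 27 counts per B6 library and 1 to 6 per BALB library (over both populations −2.17 ± 0.40, edgeR adjusted p = 0.00414), with 62 pseudogene copies.

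**Figure D4:**
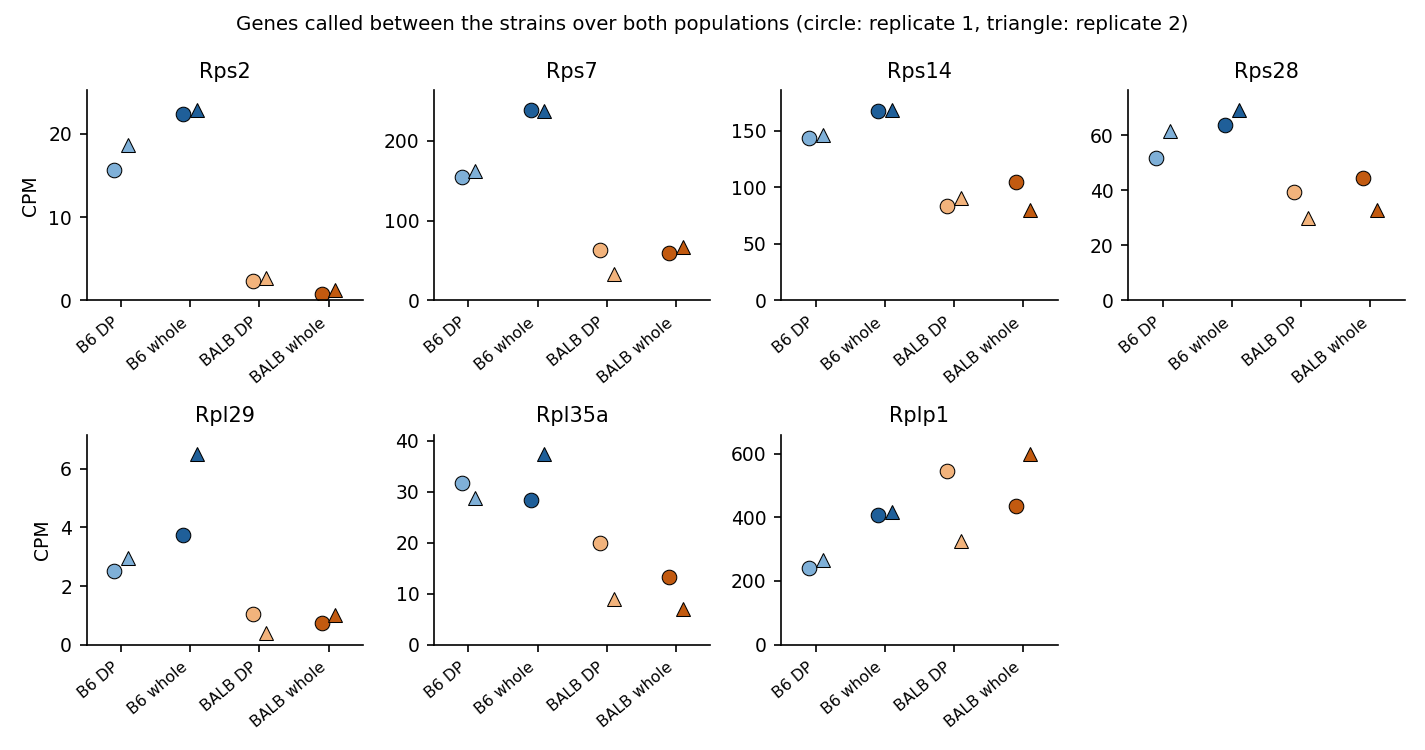
CPM per library of 7 genes that differed between the strains over both populations, 1 panel per gene with its own linear axis from 0, circles for replicate 1 and triangles for replicate 2. Rps2, Rps7, Rps14, Rps28, Rpl29 and Rpl35a are lower in every BALB library than in every B6 library, and Rplp1 overlaps.

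Rps2, Rps7 and Rps14 were called in both populations in each of the fits that left out libraries. For Rps2 the log2 fold change lay between −2.93 and −2.66 in DP and −4.91 and −4.15 in whole thymocytes over the 8 fits that left out 1 library, and for Rps14 between −0.78 and −0.68 and between −1.07 and −0.68. Over both populations the calls other than that of Rplp1 held with each library left out, and that of Rplp1 ended in 5 of the 8 fits. The call of Rps28 ended in 4 of these 8 fits in DP (edgeR adjusted p up to 0.253) and in 3 in whole thymocytes (up to 0.281), where those of Rpl35a and Rpl29 ended in 2 and 3. In whole thymocytes the median over the tested genes moved between −0.03 and 0.04 in the fits that left out 1 library. It was −0.05 without both BALB libraries numbered 1.

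The 10 genes that were higher in BALB DP than in B6 DP thymocytes came from both subunits. Rps20 was at 113 and 131 CPM in B6 DP and 194 and 169 CPM in BALB DP (0.57 ± 0.12, edgeR adjusted p = 0.00873), and Rplp0 at 167 and 164 and at 249 and 219 CPM (0.50 ± 0.10, 0.00881). These strain differences share the B6 DP libraries with whole over DP in B6, where Rps20 and Rplp0 also rose. In Rps20 and Rplp0 the BALB replicates were close to each other. In Rps21, whose start is shown above, they were not, with 48.3 and 45.6 CPM in B6 DP and 111 and 65.1 CPM in BALB DP (0.94 ± 0.23, edgeR adjusted p = 0.0188). Rplp1 at 242 and 265 against 546 and 324 CPM (0.79 ± 0.21) and Rpl36al at 33.8 and 41.1 against 83.6 and 53.1 CPM (0.89 ± 0.20) had the same shape. Rpl41, which encodes a very short peptide, Rpl32, Rpl36 and Rpl7l1, a paralog linked to ribosome assembly, were higher by 0.45 to 0.77. The median over 78 genes was 0.30, against 0.00 for all genes, and groups did not overlap in 34 genes with BALB higher and 8 with BALB lower, where 26.1% of all genes did each.

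The strain difference in DP moved with the libraries fitted. The median was 0.11 without BALB DP replicate 1 and 0.39 without BALB DP replicate 2. It was 0.25 without B6 DP replicate 1 and 0.32 without B6 DP replicate 2. The 4 DP libraries alone gave a median of 0.29 and 3 calls, 0 of them higher, where 5.38% of all genes were called. The calls of the higher genes also all ended without B6 DP replicate 1. Among genes with a mean of at least 5 CPM, the largest strain differences in DP that missed the threshold were those of Rpl27 (1.86 ± 0.57, edgeR adjusted p = 0.0512) and Rps23, of the decoding centre, at 21.3 and 24.0 CPM in B6 DP and 73.8 and 21.7 CPM in BALB DP (1.15 ± 0.40). Rpl23a, by the tunnel exit, was at 453 and 165 CPM in BALB DP against 187 and 164 in B6 DP, and Rps26 at 227 and 95.0 against 115 and 103 CPM. In each of these 4 genes BALB DP replicate 1 was far above the other 3 DP libraries, while BALB DP replicate 2 lay in or near the B6 range. Summed DP thymocyte markers were at 20155 to 20961 CPM in B6 DP and 13743 to 13765 CPM in BALB DP. Of these 10 markers 4 were called lower in BALB DP, 0 higher and 6 were not called. Of all genes 6.14% were lower and 6.85% higher. The part of the markers in the differences of the ribosomal protein genes was not tested. In whole thymocytes the median strain difference was 0.01, with 12 genes higher without overlap and 12 lower, where 25.6% and 23.0% of all genes did so.

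Some members have a paralog with a known separate role. Rpl22, without which mouse alpha-beta T cell development is blocked early, was at 168 and 162 CPM in B6 DP, 219 and 209.9 in B6 whole, 417 and 188 in BALB DP and 201 and 292 CPM in BALB whole thymocytes, and it passed in no comparison (whole over DP over both strains 0.03 ± 0.22). Its paralog Rpl22l1, which Rpl22 is known to repress, was at 4.70 to 8.22 CPM in DP and 8.43 to 9.65 CPM in whole thymocytes (0.40 ± 0.21, edgeR adjusted p = 0.203). Rps27l, a p53 target and paralog of Rps27, was at 6.59 to 14.7 CPM with no call. Rpl36al, the autosomal copy of the X-linked Rpl36a, differed by 0.05 ± 0.18 between the populations where Rpl36a rose. Rpl7 at 319 to 503 CPM and Rpl10 at 33.1 to 59.7 CPM passed in no comparison. Rplp2, the partner of Rplp1 in the stalk, was at 191 to 277 CPM and also passed in none, with 0.15 ± 0.10 between populations, where Rplp1 had 0.47 ± 0.16 (edgeR adjusted p = 0.0558).

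Of 39 ribosome biogenesis genes tested 16 rose and 1 fell in B6 whole thymocytes, where 6.89% and 3.27% of all genes did, with a median of 0.59. In BALB 8 rose and 1 fell, where 10.6% and 6.59% of all genes did, with a median of 0.14. Mdn1, an ATPase that remodels large subunit precursors, rose by 0.98 ± 0.10 in B6 and 0.99 ± 0.10 in BALB, the nucleolar GTPase Gnl3 by 1.20 ± 0.15 and 0.78 ± 0.14, and Rrp1b, of ribosomal RNA processing, by 1.38 ± 0.22 and 1.15 ± 0.22. Their sum in BALB DP replicate 1 was 6487 CPM against 3853 CPM in replicate 2, a gap wider than in any other group. Between strains 8 were higher in BALB DP thymocytes and 0 lower, where 6.85% and 6.14% of all genes were, and in whole thymocytes 1 was higher and 0 lower, where 1.98% and 2.61% were.

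The counts of the following lists stand against the same shares of all genes, 6.89% higher and 3.27% lower in B6 whole thymocytes and 10.6% and 6.59% in BALB. Of 16 genes of RNA polymerase I and its factors 3 rose in B6 and 2 in BALB, none fell, and Polr1a, its largest subunit, rose by 0.77 ± 0.14 and 0.73 ± 0.14. Among 23 elongation factors and other TOP mRNAs 5 rose and 0 fell in B6, and 4 rose and 1 fell in BALB. Eef1a1, the factor that delivers tRNA, rose by 0.45 ± 0.11 in B6. Initiation factors held 2 that rose of 29 in B6, with Eif5a at 0.56 ± 0.11, and 1 that rose and 2 that fell in BALB, so that their share of higher calls was near that of all genes in B6 and below it in BALB. In the list of growth control genes 3 rose and 1 fell of 21 in each strain, and Myc led with 1.83 ± 0.18 in B6 and 1.82 ± 0.18 in BALB. Mitochondrial ribosomal proteins held 1 that rose of 73 in B6 and 1 that fell in BALB, medians of 0.12 and −0.14. Of the cytosolic ribosomal proteins under other names, Gnb2l1, the symbol here for Rack1, rose by 0.29 ± 0.08 over both strains (edgeR adjusted p = 0.0254), and Fau passed in no comparison.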

How the data were processed

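The authors deposited whole-number counts for each gene symbol and library, with the reads outside genes totalled below. The submitters' processing notes name HISAT2 2.2.0, the build mm10, HTSeq and DESeq2 1.42.1, and no source used here gives the gene annotation or the read length. Per the labels' protocols, the kit was TruSeq v2, which loses strand, so reads of overlapping genes cannot be told apart.

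The counts were fitted with edgeR 4.0.16 in R 4.3.3. The filterByExpr function kept 11409 genes, TMM factors were 0.957 to 1.05, and the quasi-likelihood model had 1 coefficient per group, so that all 8 libraries shared 1 estimate of the spread (common biological coefficient of variation 0.114). For the comparisons over both strains or both populations the model was additive in strain and population. A gene was called when its p, adjusted over all genes tested by the Benjamini-Hochberg method, was under 0.05. The value after ± is the standard error for a log2 fold change and the SD for CPM. Depth of 2632083 to 5974684 counts and 2 libraries per group limit the precision. The fit was tested on data simulated for whole over DP in B6, with the same spread for every gene and library. It recovered 20 of 67 genes changed 1.5-fold, 54 of 67 changed 2-fold and 65 of 66 changed 4-fold. Of the unchanged genes 11 were called.

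Groups came from the sample titles. Some genes are not reported here by name; counts include them. The members, the related lists and the alternatives were chosen with earlier results of these data known. Named genes are, per comparison, up to 8 called members in each direction by p and up to 3 uncalled ones with the greatest change at 5 CPM or more, then the 5 at each end of the level, paralogs and special members, and up to 3 called genes of a related list. Rps12, Rps15a, Rps19, Rps26, Rpl9, Rpl13, Rpl14 and Rpl36 fall outside it and were chosen after their values were seen. Gene positions, transcripts and pseudogene copies came from GENCODE and start sites from RefSeq, both on GRCm38, the build that mm10 names. Alternatives were DESeq2 1.42.0, limma 3.58.1 (voom), other scalings and filters, a replicate block, and leaving out libraries. Figures were drawn with matplotlib 3.10.9.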

Additional observations from a re-analysis of the deposited data

How the results depend on the processing

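The counts of ribosomal protein genes called depended on the libraries fitted and on the filter on low counts. Without a filter on low counts they were 30 for whole over DP in B6, 16 in BALB (9 higher, 7 lower), 33 for BALB over B6 in DP, 7 for the interaction and 17 for BALB over B6 over both populations. A filter at a mean count of 50 and 1 CPM in at least 2 libraries gave 5 for whole over DP in BALB and 5 for BALB over B6 over both populations, and upper-quartile scaling gave 5 for whole over DP in BALB. With only the 4 libraries compared the counts were 45 and 0 for whole over DP in B6 and BALB, and 3 for BALB over B6 in DP. Without both BALB libraries numbered 1 they were 46 and 17 for whole over DP in B6 and BALB, 20 for BALB over B6 in whole thymocytes, 3 for the interaction, 34 for whole over DP over both strains and 16 for BALB over B6 over both populations. Leaving out each library in turn gave 1 to 39 for whole over DP in B6, 1 to 27 in BALB, 3 to 43 for BALB over B6 in DP, 3 to 8 in whole thymocytes, 0 to 27 for the interaction, 8 to 34 over both strains and 7 to 11 over both populations. The share of all genes called also shifted between these fits. The cause of these shifts was not tested. Between groups, the differences of replicate 1 and replicate 2 had correlations of −0.0384 to 0.0574 over 11409 genes. Whether libraries with the same number share an animal or a day was not tested. With the replicate number as a block the counts were 11, 4, 13, 6, 0, 16 and 8 for the 7 comparisons, in the order of the ranges with a library left out. Of 1030 values of called genes under other settings, 188 no longer passed, 154 of them with libraries left out, and 0 changed sign. The median log2 fold change of all genes went from −0.01 to 0.08 for whole over DP over both strains without a filter on low counts, and from 0.00 to 0.06 for whole over DP in BALB with upper-quartile scaling, the furthest of these settings. The depth limits Rps2, Rps27, Rpl29 and Rpl21, whose levels are low.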
